A study of Mus musculus with 6 samples.

Results

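The aquaporins are the membrane channels that carry water, and in some members glycerol, across cell membranes. Their mRNA was examined here in kidney and ureter of newborn mice labelled as WT or as knockouts (KO) of the scaffold protein Ahnak. The gene table held 24532 genes, and the 10 rows named Aqp1, Aqp2, Aqp3, Aqp4, Aqp5, Aqp6, Aqp7, Aqp8, Aqp9 and Aqp11 were taken by gene symbol, whatever their values. Bulk RNA-seq had been run on 2 Ahnak KO kidney libraries, 2 WT kidney libraries, 1 Ahnak KO ureter library and 1 WT ureter library, all from mice at postnatal day 1 (PN1). The Ahnak KO mice carried a disruption of exon 5 of Ahnak, and the RNA was said to come from 2 to 4 kidneys or ureters, without the number of animals behind each library. The labels give no strain, sex or further treatment for these groups. The titles of both ureter samples read kidney, and their tissue was taken from the source field. The study asked what the loss of Ahnak does to the developing urinary tract. Kidney against ureter, and Ahnak KO against WT in each tissue, were the comparisons that this design allowed.

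In the kidney, water follows solute through aquaporins placed in different segments. Aqp1 is the constitutive water channel of the proximal tubule and thin descending limb and is also present in endothelium and red blood cells. Aqp2 is the water channel of collecting duct principal cells, which vasopressin moves to the apical membrane through the receptor Avpr2, cAMP and protein kinase A. Aqp3 and Aqp4 form the basolateral exit of the same cells. Aqp3 and Aqp7 also carry glycerol, as does Aqp9, a channel of hepatocytes and leukocytes. Aqp5 is best known from glands and lung, Aqp6 sits in vesicles of intercalated cells and conducts anions, Aqp8 is found in gut and pancreas, and Aqp11 lies in the endoplasmic reticulum of proximal tubule cells. The urothelium that lines the ureter is known to make Aqp3.

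The deposited estimated counts summed to 55744703 to 66095616 in the 4 kidney libraries, 36410246 in the Ahnak KO ureter and 54985927 in the WT ureter. Values are given below as CPM, the count scaled to library size with edgeR's TMM factors, where a gene is followed across libraries, and as the authors' TPM, which is also scaled to transcript length, where genes are compared with each other. The ribosomal RNA precursor Rn45s took 8.06% of the counts in the Ahnak KO ureter and 0.496% to 0.632% elsewhere. The X inactivation transcript Xist had 176348 counts in Ahnak KO kidney replicate 1 and 17 to 36 in the other 5 libraries. Ahnak itself (gene number 66395) was counted in every library, at 139 and 130 CPM in the Ahnak KO kidneys, 183 and 189 CPM in the WT kidneys, 635 CPM in the Ahnak KO ureter and 727 CPM in the WT ureter. Its log2 fold change in kidney was -0.47 (SE 0.0961, adjusted p = 0.9999 by edgeR's quasi-likelihood test), a level in the Ahnak KO libraries of 0.724 times that in WT. In ureter the ratio of CPM was 0.874, but in TPM the library labelled Ahnak KO lay above WT (88.0 against 77.5), so Ahnak mRNA goes against the ureter label on that scale and does not check it. Ahnak KO and WT are used throughout as the labels give them. The tissue labels were checked with 11 urothelium markers, whose summed level was 7849 and 7179 CPM in the ureters and 67.7 to 73.7 CPM in the kidneys, and with 11 proximal tubule markers, whose summed level was 16.4 and 13.2 CPM in the ureters and 959 to 1391 CPM in the kidneys.

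Several of these genes lie side by side in the genome. Positions are those of GENCODE M21 on GRCm38 (mm10). Aqp2 (gene number 11827, chr15:99579055-99584547, 4 exons), Aqp5 (11830, chr15:99590782-99594829, 5 exons) and Aqp6 (11831, chr15:99601400-99605477, 5 exons) stand in a row on the plus strand within 26423 bp, separated by 6235 and 6571 bp. Aqp7 (11832, chr4:41033074-41048139, 8 exons) and Aqp3 (11828, chr4:41092722-41098183, 6 exons) are neighbours on the minus strand, 44583 bp apart. The others stand alone, Aqp1 (11826) at chr6:55336432-55348555, Aqp8 (11833) at chr7:123462291-123468004, Aqp11 (66333) at chr7:97724006-97738289, Aqp9 (64008) at chr9:71110659-71168682 and Aqp4 (11829) on a further chromosome. Aqp4 and Aqp9 each overlap an annotated antisense gene, and whether strand was used in the counting is not given in the sources used here, so their counts could include reads of those genes.

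The 250 bases before the RefSeq start sites of Aqp2 (chr15:99578806-99579055, plus strand) and Aqp3 (chr4:41098184-41098433, minus strand), on GRCm38.p6, are shown because these genes led the family in kidney and in ureter and were the most abundant members with opposite patterns between the tissues. Both are written 5′ to 3′ in lower case, with matches to the motifs named below in capitals.
Aqp2: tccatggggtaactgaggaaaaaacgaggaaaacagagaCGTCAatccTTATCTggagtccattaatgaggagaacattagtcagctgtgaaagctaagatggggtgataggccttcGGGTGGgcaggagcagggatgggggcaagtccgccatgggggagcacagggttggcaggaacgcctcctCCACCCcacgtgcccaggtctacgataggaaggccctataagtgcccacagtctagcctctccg
Aqp3: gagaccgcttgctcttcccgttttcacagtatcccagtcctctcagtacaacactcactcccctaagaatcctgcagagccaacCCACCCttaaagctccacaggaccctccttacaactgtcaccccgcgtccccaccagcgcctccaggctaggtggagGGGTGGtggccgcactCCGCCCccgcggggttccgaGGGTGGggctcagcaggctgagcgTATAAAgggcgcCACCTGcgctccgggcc
The motifs searched, on both strands, were the TATA box TATAAA, the GC box GGGCGG, the GATA motif AGATAA, the cAMP response element TGACGTCA and its core TGACG, which the whole element contains, the CACCC box CCACCC and the E-box CAGGTG. The Aqp2 window held the element core and the GATA motif, both on the minus strand at -211 to -207 and -202 to -197 from the start site, and the CACCC box at -133 to -128 (minus strand) and -64 to -59. The Aqp3 window held the TATA box at -29 to -24, the GC box at -73 to -68 (minus strand), the E-box at -17 to -12 (minus strand) and the CACCC box at 3 places. Among 32851 promoter windows of this length, 9.99% held the GATA motif, 17.8% the core and 1.55% the whole of the cAMP response element, 12.4% the TATA box, 32.7% the GC box, 28.1% the CACCC box and 17.2% the E-box. These are matches of letters, and no binding was measured.

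Aqp2 made up most of the aquaporin mRNA of the kidney, and Aqp3 most of that of the ureter. In kidney, Aqp2 stood at 461 and 516 TPM in the Ahnak KO libraries and 569 and 388 TPM in the WT libraries, which was 62.7% to 68.5% of the summed TPM of the family. Aqp1 followed at 103 to 135 TPM and Aqp3 at 75.9 to 97.8 TPM, and these 3 genes did not overlap each other in any kidney library. Below them came Aqp11 at 11.5 to 20.2 TPM and Aqp4 at 13.01 to 15.2 TPM, which overlapped, and Aqp6 at 6.19 to 12.9 TPM, which overlapped Aqp11 and whose highest library lay just below the lowest of Aqp4. Aqp7 (2.21 to 3.36 TPM) and Aqp5 (1.03 to 2.65 TPM) also overlapped, and Aqp8 (0.163 to 0.881 TPM) and Aqp9 (0 to 0.130 TPM) were at the foot of the list. The mean over the 4 kidney libraries was 484 ± 77.5 TPM (SD, n = 4) for Aqp2, 122 ± 13.4 TPM for Aqp1 and 85.2 ± 9.99 TPM for Aqp3.

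In ureter, Aqp3 came first at 438 TPM (Ahnak KO) and 316 TPM (WT), followed by Aqp1 at 176 and 140 TPM. Together these channels were nearly the whole of the family there, with Aqp3 at 70.4% and 68.0% and Aqp1 at 28.4% and 30.1% of its summed TPM. Aqp11 (4.19 and 5.48 TPM) and Aqp7 (2.11 and 3.21 TPM) did not overlap and made up most of the small remainder. The order of the leading pair was turned round between the tissues, since Aqp3 over Aqp1 was 0.630 to 0.788 in the kidney libraries and 2.48 and 2.26 in the ureter libraries. The summed TPM of the family was 616 to 830 in kidney and 622 and 464 in ureter, so the totals of the tissues overlapped while their make-up did not. Of the other annotated family genes, Aqp12 was listed at 0 in all 6 libraries and Mip, the lens channel, had 3 counts in Ahnak KO kidney replicate 2 and 0 elsewhere.

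**Figure D1:**
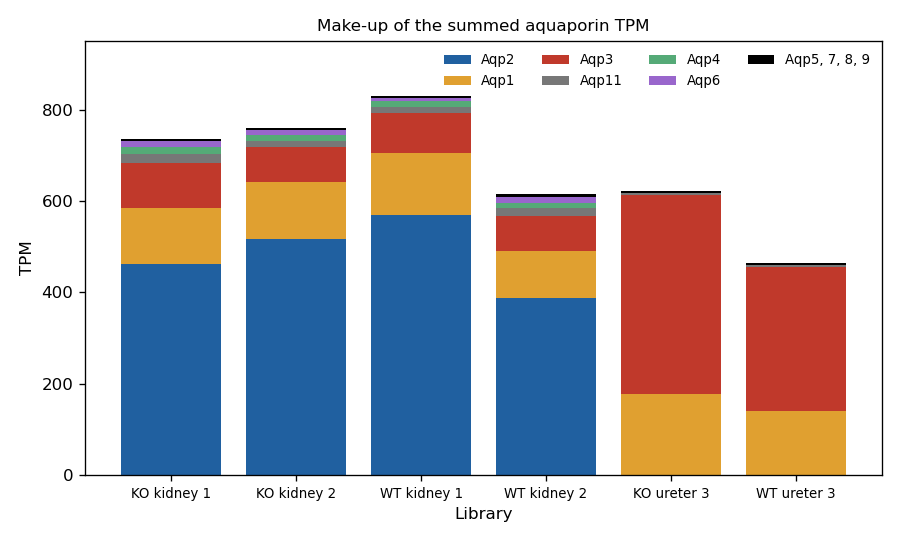
Stacked bars show the TPM of each aquaporin in each of the 6 libraries, with Aqp5, Aqp7, Aqp8 and Aqp9 summed in black. Aqp2 (blue) fills 62.7% to 68.5% of the bar in the kidney libraries and is at 0 in both ureter libraries, where Aqp3 (red) fills 70.4% and 68.0%.

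Kidney and ureter differed in 7 of the 10 members. Aqp2, Aqp4, Aqp5, Aqp6 and Aqp11 were higher in kidney, Aqp1 and Aqp3 were higher in ureter, and Aqp7, Aqp8 and Aqp9 did not pass the test. The test was edgeR's quasi-likelihood test over 16873 genes in all 6 libraries, with genotype as a term and an adjusted p under 0.05 as the threshold, and all 10 members entered it. The background was high, since 23.7% of the genes tested were higher in kidney and 21.4% were higher in ureter by the same rule, against 5 and 2 of the 10 members. The members had a median log2 fold change (kidney over ureter) of 1.303, and all genes tested one of 0.076. The members' median lies between Aqp11 (1.26) and Aqp8 (1.34, SE 1.75). Aqp8 was near the limit of detection and ran from -0.38 to 7.48 without 1 library, so this median is not a stable value. In bulk tissue, fewer cells of a type and less RNA per cell cannot be told apart.

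Aqp2, Aqp4, Aqp5 and Aqp6 were listed at 0 counts in both ureter libraries, which was the case for 5.16% of the genes tested. Of the 8 members with at least 10 counts in every kidney library these were 4, against 3.45% of the 15488 genes so counted. Aqp2 had 304 and 352 CPM in the Ahnak KO kidneys and 374 and 255 CPM in the WT kidneys, from 15548 to 26604 counts a library. All 4 kidney libraries were far above the ureters. The mean kidney level was at least 4036-fold higher (adjusted p = 2.12e-05), and the lowest kidney library at least 3206-fold. Both were counted against a limit of 3 counts in each ureter library, or 0.0796 CPM on average. Such folds are of the kidney mean below unless the lowest library is named. Aqp4 had 36.4 and 34.7 CPM in the Ahnak KO kidneys and 35.2 and 31.9 CPM in the WT kidneys and was at least 434-fold higher in kidney (adjusted p = 1.77e-05). It was the steadiest of the 8 members with at least 10 counts in every kidney library, its highest kidney library being only 1.14 times its lowest. Aqp6 had 12.4, 10.5, 5.91 and 12.2 CPM in Ahnak KO replicates 1 and 2 and WT replicates 1 and 2 and was at least 129-fold higher in kidney (adjusted p = 0.000378). WT replicate 1 was its low library, from which the bound was 74.3-fold. Aqp5, with 45 to 126 counts in kidney, had 0.744, 1.77, 1.77 and 1.92 CPM in the same order and was at least 19.5-fold higher in kidney (adjusted p = 0.00358), or at least 9.35-fold from its lowest kidney library. All adjusted p-values in this comparison are those of edgeR. These limits cover counting error only, and a count of 0 is an estimate as the table lists it.

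**Figure D2:**
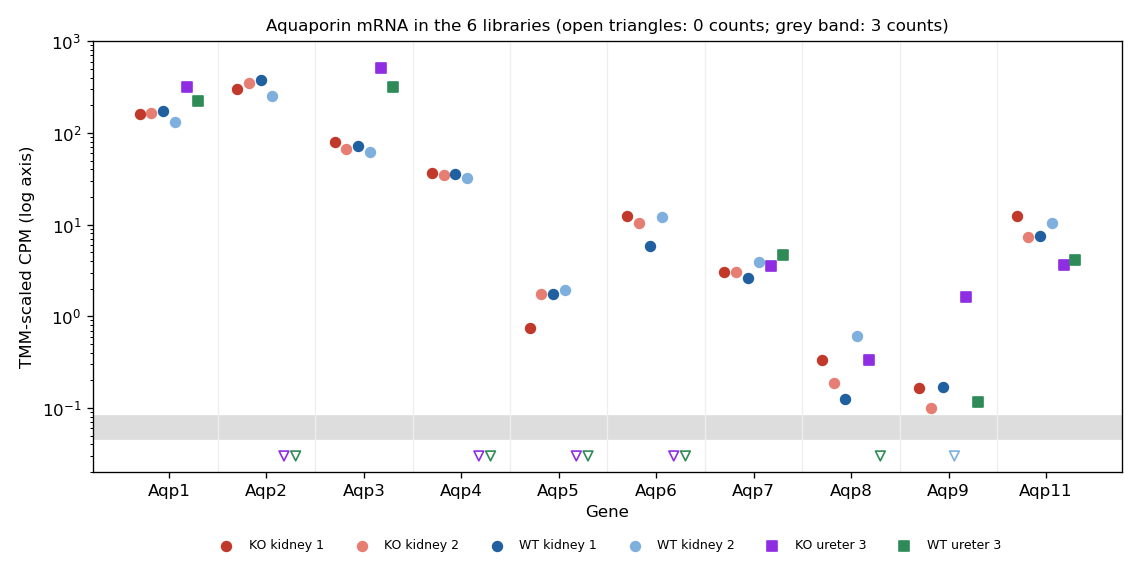
Points show the TMM-scaled CPM of each aquaporin on a log axis, with circles for the 4 kidney libraries and squares for the 2 ureter libraries. Open triangles mark libraries with 0 counts, and the grey band spans 3 counts in the 6 libraries (0.0454 to 0.0824 CPM before TMM scaling). Aqp2, Aqp4, Aqp5 and Aqp6 have open triangles in both ureters.

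Aqp3, of the members that passed, was the one furthest above kidney in ureter. It had 80.1 and 66.9 CPM in the Ahnak KO kidneys, 72.5 and 62.1 CPM in the WT kidneys, and 505 and 319 CPM in the Ahnak KO and WT ureters. The tissues were far apart and each ureter library stood above all kidney libraries. Aqp3 was 5.74-fold higher in ureter (log2 fold change of kidney over ureter -2.52, SE 0.153, adjusted p = 7.16e-05), and it passed the threshold under all 18 alternative settings. Aqp1 had 159 and 166 CPM in the Ahnak KO kidneys, 172 and 132 CPM in the WT kidneys, and 318 and 221 CPM in the Ahnak KO and WT ureters. The ureters again lay above all kidneys, by less than for Aqp3. The difference was 1.69-fold (log2 fold change -0.76, SE 0.150, adjusted p = 0.00806). Its size depended on the scaling, since the log2 fold change was -0.46 with library size alone and -0.45 with limma on log2(FPKM + 1). In TPM the WT ureter (140) lay close to WT kidney replicate 1 (135). Without the Ahnak KO ureter library the adjusted p was 0.0727, and within the WT libraries alone it was 0.052, with the same direction (log2 fold change -0.54 and -0.53).

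Aqp11 was higher in kidney, at 12.4 and 7.32 CPM (Ahnak KO) and 7.43 and 10.4 CPM (WT) against 3.63 and 4.16 CPM in the Ahnak KO and WT ureters. No kidney library overlapped the ureters, and the fold was 2.40 (log2 fold change 1.26, SE 0.313, adjusted p = 0.0183). Its call was lost in 4 of 18 alternative settings. In those with 1 ureter library left, the log2 fold change was 1.09 (without the Ahnak KO ureter) and 1.44 (Ahnak KO libraries alone). It was 1.17 without WT kidney replicate 2 (adjusted p = 0.0621). The last setting kept only both ureters and the replicate 2 kidneys, which share a code with them in the column headings (1.16, adjusted p = 0.0541). It was added after the data were seen. Each shared code is 1 genotype, so the terms were those of the main fit and only the libraries differed. The glycerol channel Aqp7 had 2.60 to 3.95 CPM in kidney and 3.50 and 4.64 CPM in ureter, so the tissues overlapped (log2 fold change -0.36, SE 0.307, adjusted p = 0.382). Aqp8 and Aqp9 were close to the limit of detection. Aqp8 had 9 to 37 counts in the kidney libraries, 10 in the Ahnak KO ureter and 0 in the WT ureter (adjusted p = 0.562). Aqp9 had 0 to 12 counts in the kidney libraries, 48 in the Ahnak KO ureter and 6 in the WT ureter (adjusted p = 0.242). Differences of the size seen in Aqp8 and Aqp9 were not detectable at this depth and number of libraries.

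**Figure D3:**
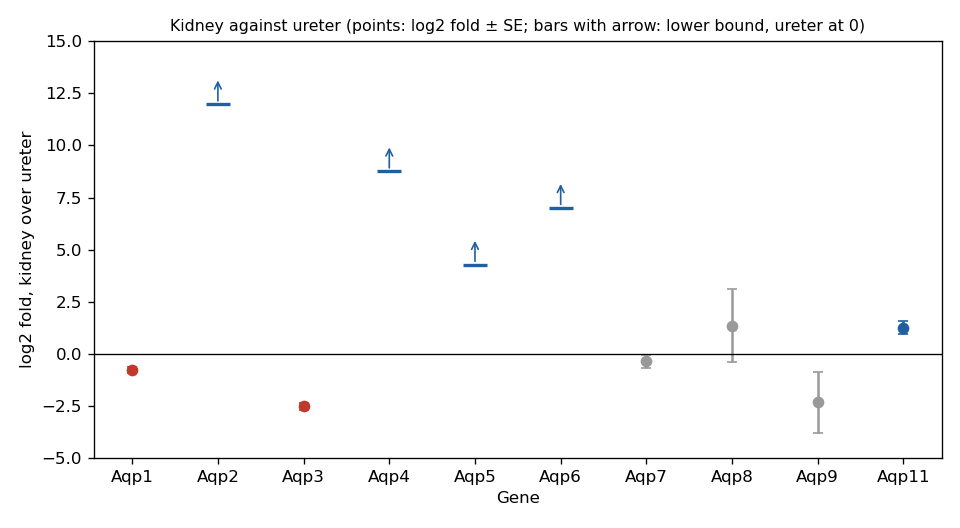
Points give the fitted log2 fold of kidney over ureter with its SE for the members counted in ureter, in blue (higher in kidney) or red (higher in ureter) where the adjusted p was under 0.05 and grey otherwise. Bars with arrows give the lower bound, from the kidney mean, for the 4 members listed at 0 in both ureters, from 19.5-fold (Aqp5) to 4036-fold (Aqp2).

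Genes listed for the vasopressin and cAMP signal to Aqp2 were found on both sides of the tissue comparison. Besides parts of the signal, the list holds the transcription factors Creb1, Nfat5, Elf3, Elf5, Grhl2, Gata2 and Gata3. Of 25 genes listed for the vasopressin and cAMP signal, 23 were tested, of which 6 were higher in kidney, 9 higher in ureter and 8 did not pass, beside 23.7% and 21.4% of all genes tested, so the kidney count was near the background. They had a median log2 fold change of -0.17. Avpr2, the vasopressin receptor of the collecting duct, had 6.83, 10.03, 13.01 and 10.2 CPM in Ahnak KO replicates 1 and 2 and WT replicates 1 and 2 of kidney and was listed at 0 in both ureters, at least 126-fold lower there (adjusted p = 0.000155). Elf5, a transcription factor of principal cells, was 11.6-fold higher in kidney (log2 fold change 3.53, SE 0.405, adjusted p = 0.000871). The transcription factors Gata2, which is known to act on the Aqp2 gene, and Elf3 went the other way. Gata2 had 36.7 to 52.4 CPM in kidney and 289 and 335 CPM in ureter (6.73-fold higher in ureter, adjusted p = 5.98e-05), and Elf3 had 21.3 to 29.4 CPM in kidney and 118 and 248.8 CPM in ureter (6.68-fold, adjusted p = 0.000493). Gata3, named after its values were seen, had 60.1 to 66.5 CPM in kidney and 175 and 162 CPM in ureter (log2 fold change -1.42, SE 0.0883, adjusted p = 7.83e-05). The ureter libraries thus held Gata2, Gata3 and Elf3 above the kidney level with Aqp2 and Avpr2 listed at 0.

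The transporters that build the urine concentrating gradient were nearly all kidney genes. Of 16, all tested, 14 were higher in kidney and 1 in ureter, with 9 at 0 in both ureters, beside 23.7%, 21.4% and 5.16% of all genes tested. Slc12a1, the sodium, potassium and chloride cotransporter of the thick ascending limb, had 270 to 374 CPM in kidney and was at least 3888-fold higher there (adjusted p = 1.59e-05), and Umod, which encodes uromodulin, was at least 1455-fold higher (adjusted p = 2.24e-05). The gene higher in ureter was Slc14a1, a urea channel of urothelium, red blood cells and vasa recta. It had 3.48 to 7.35 CPM in kidney and 180 and 133 CPM in ureter, and was 31.1-fold higher in ureter (log2 fold change -4.96, SE 0.330, adjusted p = 9.56e-05), the same direction as Aqp3. Of 10 genes of glycerol handling, 9 were tested, of which 2 were higher in kidney, 4 higher in ureter and 3 did not pass, beside the same 23.7% and 21.4% of all genes tested, so the kidney count was again near the background. Gpd1, which makes glycerol 3-phosphate, was 22.5-fold higher in kidney (adjusted p = 0.00169), while Dgat2, an enzyme of triglyceride synthesis, was 5.41-fold higher in ureter (adjusted p = 0.000115) and Plin2, a lipid droplet coat protein, 2.15-fold higher (adjusted p = 0.00384).

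Markers of the cells that carry the channels moved with some of these differences and against that of Aqp1 in proximal tubule. Their part in the differences was not tested. Over all genes tested, 23.7% were higher in kidney, 21.4% were higher in ureter and 5.16% were at 0 in both ureters. All 11 urothelium markers were higher in ureter, as Aqp3 and Aqp1 were, and all 8 smooth muscle markers as well, with a summed level of 588 to 692 CPM in kidney and 7030 and 7788 CPM in ureter. Of 7 principal cell markers, 6 were higher in kidney and 3 were at 0 in both ureters (Avpr2, Kcnj1 and Fxyd4), with a summed level of 531 to 573 CPM in kidney and 125 and 149 CPM in ureter. All 8 intercalated cell markers were higher in kidney, with sums of 162 to 217 CPM in kidney and 0.740 and 2.797 CPM in ureter. All 11 proximal tubule markers were higher in kidney and 6 were at 0 in both ureters. Aqp1, which proximal tubule cells express, was nevertheless higher in ureter. Endothelium, which also expresses Aqp1, had a summed marker level of 816 to 974 CPM in kidney and 729 and 785 CPM in ureter, with 4 of 9 markers higher in kidney and 1, Cdh5, higher in ureter. Red blood cell markers summed to 673 to 852 CPM in kidney and 666 and 1401 CPM in the Ahnak KO and WT ureters. Of the 8 tested, 1 was higher in each tissue, which was below the shares over all genes, as was the endothelium count in ureter. Almost all of each sum was globin. The marker higher in ureter was Hbb-bt, at 173 and 1.28 CPM in the Ahnak KO and WT ureters, so it rested on 1 library. Hbb-bs ran the other way there, at 0.0336 and 763 CPM. Hba-a2 had 0.182 CPM in Ahnak KO kidney replicate 1 and 340 to 628 CPM in the other kidney libraries. What made single globin genes differ so was not tested.

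The genes beside the row of Aqp2, Aqp5 and Aqp6 differed between the tissues in both directions. Next to Aqp2, Faim2 had 3 to 26 counts in kidney and 4 and 0 in ureter (adjusted p = 0.213). On the far side of Aqp6, Racgap1, a cytokinesis gene, was higher in kidney with 106 to 112 CPM against 65.8 and 73.7 CPM (log2 fold change 0.63, adjusted p = 0.00203), and Asic1, an acid-sensing channel, was higher in ureter (log2 fold change -2.24, adjusted p = 0.00627). Smarcd1, the next gene, was higher in kidney (log2 fold change 1.21, adjusted p = 0.000543) and was counted in both ureters at 42.3 and 38.3 CPM. The 3 aquaporins of the row were thus listed at 0 in the ureter libraries, while Racgap1, Asic1 and Smarcd1 were counted in both. In the other cluster, Aqp3 was higher in ureter while its neighbour Aqp7 did not pass the test, nor did Nol6 (log2 fold change -0.42, adjusted p = 0.0905) beyond Aqp3 or Nfx1 (0.10, adjusted p = 0.368) beyond Aqp7.

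No aquaporin passed the test between Ahnak KO and WT kidneys. Of the 10 members, 9 were tested and Aqp9 was left out by the filter on low counts, and the adjusted p was 0.9999 for each of the 9. None of the 9 had an unadjusted p under 0.05. Over all 16481 genes tested, 0.0121% passed (0 higher and 2 lower in Ahnak KO), 131 were higher and 96 lower at an unadjusted p under 0.05, and DESeq2 called 25 higher and 19 lower, none of them an aquaporin. The abundant members differed little. The log2 fold change of Ahnak KO over WT was 0.10 (SE 0.145) for Aqp1, 0.064 (SE 0.194) for Aqp2, 0.13 (SE 0.144) for Aqp3 and 0.087 (SE 0.128) for Aqp4. It was 0.15 (SE 0.311) for Aqp11, 0.34 (SE 0.350) for Aqp6 and -0.10 (SE 0.335) for Aqp7. Aqp8 had the widest error (-0.50, SE 1.01). Leaving out 1 kidney library at a time turned the sign of all of these but Aqp4, so no direction is given for them. None of the 23 tested genes listed for the vasopressin and cAMP signal, 16 urine concentrating transporters or 9 genes of glycerol handling passed in kidney either.

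Aqp5 was the only member whose genotypes did not overlap. Both Ahnak KO libraries (0.744 and 1.768 CPM) were below both WT libraries (1.770 and 1.919 CPM), while 13.5% of the genes tested lay below in the same way. No member lay above in both (12.8% of the genes did), and 26.3% of the genes did not overlap in either direction. The counts were 45 and 105 in Ahnak KO and 126 and 117 in WT. Replicate 2 of the Ahnak KO kidneys was almost level with the lower WT library, and the log2 fold change of -0.55 (SE 0.531, adjusted p = 0.9999 by edgeR) became -0.056 when Ahnak KO replicate 1 was left out and -1.31 when replicate 2 was. The difference in Aqp5 therefore lay in a single library, which is also the one with the high Xist count and with 7755 genes listed at 0, against 6415 to 6706 in the other kidney libraries. Their part in it was not tested. Of the 167 genes that had 100 to 150 counts in both WT kidney libraries, Aqp5 among them, 7.19% were under 0.5 of the WT mean CPM in replicate 1 of the Ahnak KO kidneys and 2.99% in replicate 2, a comparison made after the values of Aqp5 were seen. Aqp5 is on a list that the study drew up from these libraries, so its direction here is not independent evidence.

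**Figure D4:**
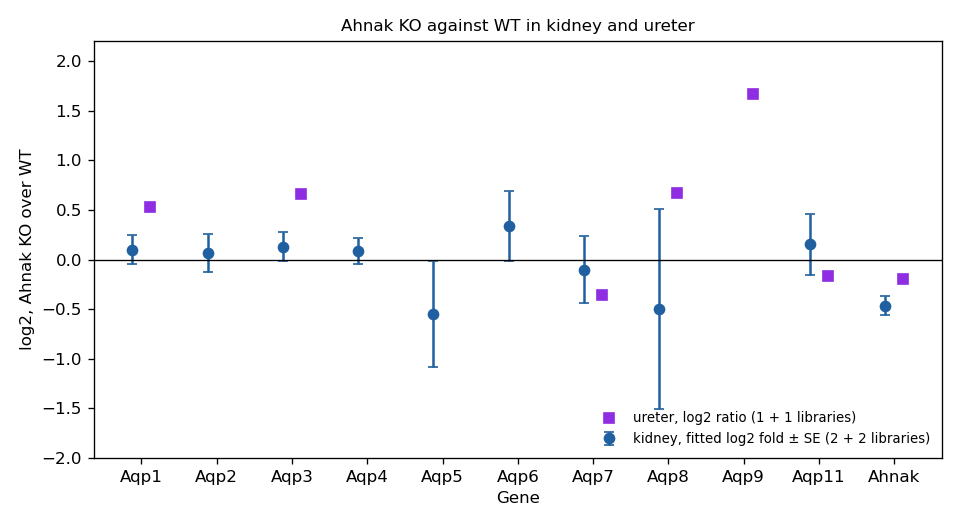
Blue circles give the fitted log2 fold of Ahnak KO over WT in kidney with its SE (2 libraries of each genotype), and purple squares the log2 ratio of CPM + 0.5 in ureter (1 library of each genotype, no error). No aquaporin passed the kidney test, and the SE of Aqp8 (1.01) is the widest.

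The kidney libraries also differed within a genotype. Aqp11 was high in Ahnak KO replicate 1 and WT replicate 2 (12.4 and 10.4 CPM) and low in Ahnak KO replicate 2 and WT replicate 1 (7.32 and 7.43 CPM), with 1 library of each genotype on each side. The summed proximal tubule markers split the libraries in the same way, at 1391 and 1387 CPM in Ahnak KO replicate 1 and WT replicate 2 and at 975 and 959 CPM in Ahnak KO replicate 2 and WT replicate 1. Intercalated cell markers summed to 217 and 194 CPM in the former libraries and 166 and 162 CPM in the latter. The split was not particular to these cells. Podocyte markers had it too (873 and 796 CPM against 749 and 740 CPM), and nephron progenitor markers by little (286 and 311 CPM against 284 and 277 CPM). Endothelium markers did not (974 and 816 CPM against 961 and 939 CPM). The share of all genes that split the libraries in this way is not given here. Aqp6 was also highest in the former libraries, at 12.4 and 12.2 CPM, with 10.5 and 5.91 CPM in the latter. Aqp2 had the opposite arrangement, with 352 and 374 CPM in Ahnak KO replicate 2 and WT replicate 1 and 304 and 255 CPM in Ahnak KO replicate 1 and WT replicate 2. The collecting duct urea transporter Slc14a2, named after its values were seen, followed Aqp2, with 21.1 and 27.5 CPM in Ahnak KO replicate 2 and WT replicate 1 against 8.17 and 6.59 CPM. The 7 principal cell markers summed to 573, 542, 555 and 531 CPM in Ahnak KO replicates 1 and 2 and WT replicates 1 and 2, which did not follow Aqp2. Tfcp2l1 made up 295 to 337 CPM of these sums. Single markers spread more. In the same order, Avpr2 had 6.83, 10.03, 13.01 and 10.2 CPM and Kcnj1 34.7, 31.1, 40.4 and 52.7 CPM. Hsd11b2 had the reverse of the Aqp2 arrangement (40.9, 23.6, 29.5 and 31.3 CPM), while Scnn1g had that of Aqp2 (45.2, 48.0, 46.0 and 41.4 CPM). Aqp1 was lowest in WT replicate 2 (132 CPM, against 159 to 172 CPM). The part of the tubule markers in these differences was not tested.

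**Figure D5:**
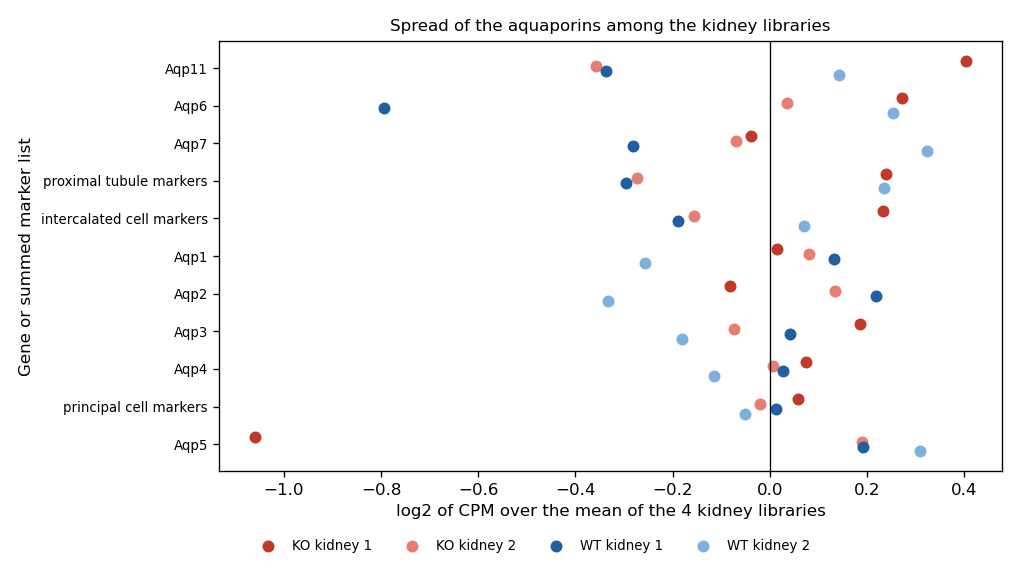
Each point is the log2 of a kidney library's CPM over the mean of the 4 kidney libraries, for the 8 members with at least 10 counts in each and for 3 summed marker lists. Aqp11 and the proximal tubule markers have Ahnak KO replicate 1 and WT replicate 2 on the right, Aqp2 has them on the left, and Aqp5 has Ahnak KO replicate 1 alone far to the left.

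The ureter libraries allowed a description only, since each genotype had 1 library, and Ahnak mRNA in TPM was higher in the library labelled Ahnak KO, so each direction below rests on the label alone. Of the 10 members, 6 had at least 10 counts in either ureter and are given as a log2 ratio, Ahnak KO over WT, of CPM + 0.5. Aqp9 was the only member past 2-fold, and it was higher in the library labelled Ahnak KO, as were 4.44% of the 16117 genes compared, while no member was lower by over 2-fold (5.75% of the genes). Aqp3 stood at 505 CPM in Ahnak KO and 319 CPM in WT (log2 ratio 0.66), and Aqp1 at 318 and 221 CPM (0.53). Both were above the WT level by 1.58 and 1.44 times, and under other scalings and units the log2 ratio was 0.45 to 0.66 for Aqp3 and 0.32 to 0.53 for Aqp1. The summed urothelium markers were 7849 CPM in Ahnak KO and 7179 CPM in WT, and 0 of the 11 differed by over 2-fold. Single markers were mixed, with Krt5 at 587 and 353 CPM and Krt14 at 41.9 and 50.4 CPM. The Ahnak KO ureter is the library with 8.06% of its counts on Rn45s. The part of the urothelium or of Rn45s in these ratios was not tested. Aqp7 (log2 ratio -0.36) and Aqp11 (-0.17) were a little lower in the library labelled Ahnak KO, and Aqp8 had 10 and 0 counts.

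Aqp9 had 48 counts in the ureter library labelled Ahnak KO and 6 in that labelled WT, or 1.61 and 0.117 CPM. The ratio of CPM + 0.5 was 3.18 (log2 ratio 1.67), and in FPKM, with the same addition, the log2 ratio was 0.83, below the 2-fold mark. Aqp9 is known from leukocytes and hepatocytes. The 10 neutrophil markers summed to 61.0 CPM in the Ahnak KO ureter and 168 CPM in the WT ureter, the opposite order. Single markers were mixed, with 7 lower and 2 higher in Ahnak KO by over 2-fold, beside 5.75% and 4.44% of the genes compared. The 2 higher were Retnlg (6.93 and 1.61 CPM) and Mmp8 (6.46 and 1.71 CPM). The 7 liver markers summed to 148 and 168 CPM. The 9 fat cell markers summed to 557 and 276 CPM, almost all of it Fabp4, which also had 323 to 418 CPM in the kidney libraries. Adipoq (5.72 and 0.350 CPM), Plin1, Cfd and Retn were higher in Ahnak KO as well. Cidea (0.403 and 1.01 CPM) and Ucp1 (0 and 0.194 CPM) went the other way, and Lep and Cidec had 0 counts in both ureters. The part of these cells in the Aqp9 counts was not tested.

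The genotype contrast was also compared between the tissues in 1 fit, in which the lone ureter libraries are assumed to vary like the kidney libraries. None of the 10 members passed (0.108% of the 17557 genes tested did). The difference of the log2 fold changes, ureter minus kidney, was 0.53 (SE 0.241, adjusted p = 0.448 by edgeR) for Aqp3 and 0.42 (SE 0.263, adjusted p = 0.583) for Aqp1. The adjusted p was 0.405 for Aqp8 and 0.712 for Aqp9.

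The genes whose level ran most closely with each aquaporin over the 6 libraries were found among the 16873 genes tested, by the smallest root mean square difference (RMSD) of centred log2(CPM + 0.5) values. The points are 6 libraries of only 2 tissues, so a small value is mostly a match of the step between kidney and ureter. For Aqp2 the nearest were Calb1, the calcium-binding protein calbindin (RMSD 0.236), S100g, another calcium-binding protein (0.286), and Slc12a1 (0.328). Calb1 had 213, 285, 267 and 171 CPM in Ahnak KO replicates 1 and 2 and WT replicates 1 and 2 of kidney and 0 counts in both ureters. For Aqp4 they included Lama1, a basement membrane laminin chain (0.0718), and Vwa2 (0.0733). For Aqp6 they were Oxgr1, a receptor for oxoglutarate (0.203), Slc6a13 (0.230) and Dusp15 (0.240), and for Aqp5 they were C1ql4 (0.0922), Asgr1 (0.130) and 4931403E22Rik (0.135). C1ql4 had 0.711 CPM in Ahnak KO replicate 1 and 1.51 to 1.62 CPM in the other kidneys, the arrangement of Aqp5.

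For Aqp3 the nearest was Matn2, an extracellular matrix protein (RMSD 0.0364), with 37.1 to 49.2 CPM in kidney and 299 and 204 CPM in the Ahnak KO and WT ureters, followed by Itih5 (0.0570) and Htr1d (0.0737). For Aqp1 they were the tumour necrosis factor receptor Tnfrsf1a (0.0487), Hras (0.0509) and Shb (0.0578). Tnfrsf1a had 66.1 to 82.6 CPM in kidney and 155 and 106 CPM in ureter. For Aqp7 they were the ribosomal protein gene Rps2 (0.0639), Rdm1 (0.0668) and Plekhg3 (0.0689), and for Aqp11 they were Dclk3 (0.0552), AI504432 (0.0843) and Ttbk1 (0.0875). No aquaporin was among the 3 nearest genes of another, those in the row of Aqp2, Aqp5 and Aqp6 included. Aqp8 and Aqp9 had a mean under 1 CPM and were not matched.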

How the data were processed

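RNA of 4 kidney and 2 ureter samples of PN1 mice was sequenced on an Illumina HiSeq2500. The submitters' processing notes name FastQC 0.11.7, Trimmomatic 0.38, HISAT2 2.1.0, StringTie 1.3.4b, edgeR and mm10, while the study's methods name Cutadapt, STAR, Cufflinks and another genome release, so the steps that made the table cannot be told from these sources. The authors deposited, for each gene and library, an estimated count given as a whole number, and FPKM and TPM values that they had normalized for gene length and depth. Read counts had been assumed when the test was chosen, and the estimated counts were used in their place. The kidney columns were matched to samples by title and the ureter columns by tissue and genotype.

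Genes were filtered with filterByExpr, scaled with TMM and tested with edgeR 4.0.16 (quasi-likelihood, Benjamini-Hochberg over all genes tested) in R 4.3.3. Kidney against ureter used all 6 libraries with genotype as a term (3 residual degrees of freedom), and Ahnak KO against WT the 4 kidney libraries (2 residual degrees of freedom). Standard errors are the absolute log2 fold change over the square root of F, an approximation. The p-values measure the spread between these libraries, which the study calls biological replicates without naming the animals. With 1 ureter library of each genotype, the tissue test holds no spread between ureter replicates. Its spread is that of the kidney replicates and of any difference in the genotype contrast between the tissues. For the 2 ureter libraries a log2 ratio of CPM + 0.5 was taken where either had at least 10 counts. Alternatives used DESeq2 1.42.0, limma 3.58.1 on log2(FPKM + 1) and log2(FPKM + 0.1), other scalings, filters and terms, and leaving out each library. The code was tested on simulated data.

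At these depths a limit of 3 counts is 0.0454 to 0.0824 CPM. All 10 members were named whatever their values, with at most 2 genes a direction from each other list (adjusted p under 0.05 and a mean of at least 1 CPM, by size of change), and the 3 nearest genes of each member, of which 1 is not reported here. Members and lists were chosen with earlier results of these data known. Promoter windows are from RefSeq (GRCm38.p6) and were held for 9 members. Python 3.11.15, pandas 2.3.3 and matplotlib 3.10.9 did the rest.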

Additional observations from a re-analysis of the deposited data

How the results depend on the processing

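With 1 ureter library of each genotype, tissue differences rest on 2 ureter libraries and ureter genotype values have no error. Aqp2, Aqp4, Aqp5 and Aqp6 stayed past the threshold in kidney under all 17 alternatives that could test them, and Aqp3 in ureter under all 18. Aqp11 lost its call in 4 of 18, and Aqp1 in 2. The aquaporins higher in kidney (5) were 1 when at least 10 counts were asked of every library, a filter that removes those at 0 in ureter, and 4 to 5 without 1 library. Those higher in ureter (2) were 1 in the WT libraries alone and 1 to 2 without 1 library. Over all genes, 3992 were higher in kidney and 3603 in ureter. Scaling by library size alone gave 6108 and 2371, which moved the share higher in kidney from 52.6% to 72.0% and the median log2 fold change of all genes from 0.076 to 0.36. limma gave 6360 higher in kidney on log2(FPKM + 1) and 6557 on log2(FPKM + 0.1). No aquaporin changed direction under these scalings, and Aqp1 and Aqp3 stayed higher in ureter. Leaving out 1 library gave 2710 to 3573 higher in kidney and 2448 to 3320 higher in ureter. Keeping only both ureters and the replicate 2 kidneys that share a code with them in the column headings gave 2301 higher in kidney and 2540 in ureter. The share in kidney was 47.5%, and 4 and 2 aquaporins passed, with Aqp11 lost. This setting was added after the data were seen, and it differs from the main fit only in the libraries kept. Aqp8 was -0.38 in the Ahnak KO libraries alone, from 1.34, and -0.38 to 7.48 without 1 library.

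For Ahnak KO against WT in kidney, genes higher (0) were 25 with DESeq2 and 1 to 24 without 1 library. Genes lower (2) were 19 with DESeq2, 1 with at least 10 counts in every library, 0 with limma on log2(FPKM + 1), 0 on log2(FPKM + 0.1), 0 with tissue as a term over all 6 libraries and 2 to 63 without 1 library. No aquaporin passed in any of these. The replicate numbers gave 2 pairs, whose deviations correlated at -0.193 over 16481 genes. The labels name no pairing, and this value alone cannot show whether the pairs share more than a number. A replicate block gave 0 higher and 0 lower, and the crossed pairing, added after the data were seen, 0 and 1. Without 1 library the log2 fold change ran from -0.082 to 0.30 for Aqp1, -0.19 to 0.36 for Aqp2, -0.0026 to 0.25 for Aqp3, -0.094 to 0.95 for Aqp6, -0.38 to 0.23 for Aqp7, -1.23 to 1.02 for Aqp8 and -0.27 to 0.48 for Aqp11, and Aqp8 was 0.73 with tissue as a term. For the difference of the contrast between tissues, DESeq2 gave 0.74 for Aqp2, 0.72 for Aqp4 and 0.46 for Aqp6, which are at 0 in ureter. In ureter, 716 genes were higher and 927 lower in Ahnak KO by over 2-fold. With CPM + 0.1 these were 1142 and 1629, with 2 aquaporins higher, and with FPKM 334 were higher, with 0 aquaporins, as with at least 50 counts. Beyond the filter, the cause of these moves was not tested.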
